A study of Mus musculus with 12 samples.

Results

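The comparison described here is that of the synj1 genotypes in the spinal cord just below a contusion injury, read across all genes. Its members are the genes that the deposited table lists for mice labelled synj1+/- against mice labelled synj1+/+ on the caudal side of the lesion, 12338 genes in all, from 6 of the 12 libraries of the series. Both groups were male mice of 4 months that express human ApoE4, the variant of apolipoprotein E associated with poorer outcomes after spinal cord injury. Both received a motor-incomplete contusion at thoracic level T9 and were sampled at 14 days. Mice labelled synj1+/+ carried intact copies of synj1 and mice labelled synj1+/- carried 1 inactive allele, with 3 libraries in each. Since every mouse carries ApoE4 and every cord is injured, the values say nothing of uninjured cord or of other ApoE variants. The same genotypes were also sampled just above the lesion, and those values are set beside the ones below where they bear on them.

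Synaptojanin 1 is a lipid phosphatase that removes phosphates from phosphoinositol 4,5-bisphosphate, a membrane lipid, and it acts with dynamin, amphiphysin and endophilins in the recycling of synaptic vesicles. After a contusion, the cord around the injury holds reactive astrocytes, activated microglia and infiltrating macrophages. Fibroblasts of the meninges and of blood vessels lay down collagen and other matrix proteins, which form the fibrotic part of the scar. Below the lesion, neurons and their local circuits survive but lose much of their input from the brain.

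The table gives 1 value per gene and group, in FPKM (fragments scaled to transcript length and to the mapped fragments of the library) with an offset of 1, in which the authors pooled 3 libraries. No spread between libraries, no test of a difference and no depth of a single library can be had from such values, and a pooled value cannot show whether 1 library carries a difference. Sizes are therefore given as the log2 ratio of FPKM + 1 in mice labelled synj1+/- over that in mice labelled synj1+/+, among genes with an FPKM of at least 10 in the higher group. This filter left 9694 genes below the lesion. A ratio past 1.5-fold, a log2 ratio of 0.58, was taken as the call, and it is a description of size and not of significance. Pairs of values are FPKM, with mice labelled synj1+/+ first and mice labelled synj1+/- second. Levels above and below the lesion were normalized separately by the authors, so a level set across the sites carries that limit each time, and mice may be shared between the sites.

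The targeted gene was measured first. SYNJ1 had an FPKM of 1846 in mice labelled synj1+/+ and 2592 in mice labelled synj1+/- below the lesion, a log2 ratio of 0.49, and 1904 and 2403 above it. Mice said to carry 1 inactive allele thus had the higher level at both sites, which goes against the labels, and the directions given here are those of the labels. SYNJ1 lies on chromosome 16 from 90936092 to 91013727 in GRCm38.p6. Of 53 genes listed within 5 Mb of it, 39 passed the filter, 17 of them higher and 22 lower in mice labelled synj1+/-. Of the 39, 2 were lower past 1.5-fold and 1 higher, where 3.59% of all genes that passed were lower and 0.815% higher. The lower genes were IFNAR2, a subunit of the type I interferon receptor, at 71.3 and 46.1, and IL10RB, a subunit of the interleukin 10 receptor, at 37.3 and 23.0. The potassium channel KCNJ6 was higher at 8.62 and 13.6 and passed the filter through mice labelled synj1+/- only. Above the lesion KCNJ6 was at 16.4 and 11.9. APOE had an FPKM of 476 in mice labelled synj1+/+ and 563 in mice labelled synj1+/-, and above the lesion 766 and 548. The reads were aligned to the mouse genome, so the APOE value need not measure the human transcript.

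The tissue label was checked against its markers. The genes of highest level below the lesion were DNM1, FTH1, MOBP, GFAP and PKP4, of which dynamin 1 is a neuronal protein, MOBP a myelin protein and GFAP the intermediate filament of astrocytes. GFAP was listed at 11116 and 8484, MOBP at 10365 and 9723, and FTH1, the heavy chain of ferritin, at 11160.2 and 10949.6. PKP4, a plakophilin of cell junctions, was at 6903 and 6530.1. The position label also has a counterpart in the Hox genes, whose more caudal members mark lower segments. HOXC10 was at 32.5 and 37.0 below the lesion and at 4.95 and 6.86 above it. HOXD9 was at 17.3 and 20.2 below and at 2.49 and 3.44 above. Both genes were picked after their values were seen. Over the 14 Hox genes listed at both sites, the median log2 ratio of below over above was -0.18 in mice labelled synj1+/+. In mice labelled synj1+/- it was -0.10. Of 10 skeletal muscle genes, 2 were listed, and none passed the filter. Of 15 lymphocyte and neutrophil genes, 3 were listed and 1 passed, S100A9 at 13.4 and 9.86.

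Most genes had similar values in both groups. Of the 9694 genes, 5236 were higher and 4458 lower in mice labelled synj1+/-, the median log2 ratio was 0.02, and 95.6% of genes lay within 1.5-fold. The genes past 1.5-fold were mostly lower. There were 348 lower genes, 3.59% of those that passed the filter, and 79 higher genes, 0.815%. Past 2-fold, 103 genes were lower (1.06%) and 10 were higher (0.103%). Lower past 4-fold were 19 genes, and past 8-fold 6. Above the lesion, 10897 genes passed the filter, with 149 lower past 1.5-fold (1.37%) and 59 higher (0.541%). At 2-fold, the shares above the lesion were 0.422% lower and 0.0826% higher. Of the 103 genes lower past 2-fold, 53 passed the filter through mice labelled synj1+/+ only and so had to differ. Of the 103, 26 were on the matrix lists, 5 on the immune lists and 61 on no list. Of all 9694 genes that passed, 70 were on the matrix lists, 68 on the immune lists and 5.61% on any list. The lists were chosen with earlier results of these data known.

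**Figure D1:**
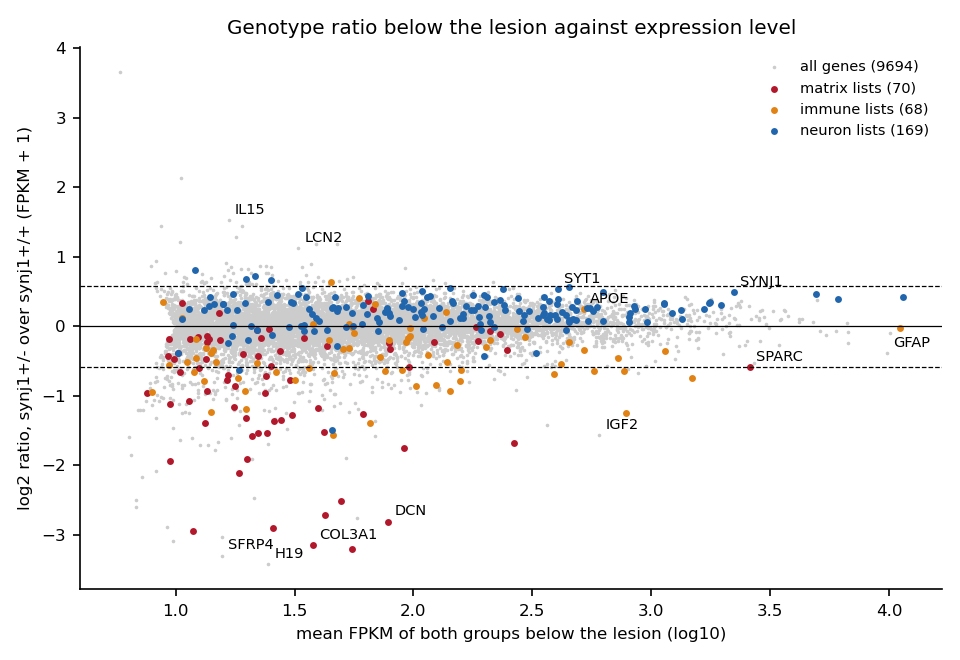
Each point is a gene below the lesion, with its mean FPKM of both groups on a log10 axis and the log2 ratio of mice labelled synj1+/- over mice labelled synj1+/+; genes of the matrix, immune and neuron lists are coloured and dashed lines mark 1.5-fold. Matrix genes reach down to -3.20 (MGP), the neuron genes sit in a narrow band mostly above 0, and the 10 genes higher past 2-fold lie on the low side of the level axis.

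The genes of lowest ratio included many secreted proteins known from fibroblasts and other matrix-forming cells. H19, an imprinted long non-coding RNA abundant in embryonic and mesenchymal tissue, had an FPKM of 45.6 in mice labelled synj1+/+ and 3.34 in mice labelled synj1+/-, a log2 ratio of -3.42. SFRP4, a secreted Wnt antagonist, had 29.2 and 2.08. MGP, the matrix Gla protein that binds calcium, had 100.5 and 10.0. COL3A1, a fibrillar collagen of loose connective tissue, had 68.9 and 6.91. These 4 genes were also low in both groups above the lesion, where H19 was at 3.17 and 4.08, SFRP4 at 1.46 and 1.57, MGP at 4.92 and 4.09, and COL3A1 at 4.25 and 0.728. The synj1+/+ label below the lesion thus had the highest of the 4 values, which the choice of these genes by their ratio partly fixes, and H19, SFRP4 and COL3A1 passed the filter through that group only.

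Of the 15 lowest genes, 10 passed the filter through 1 group only. The remaining genes among them included further collagens and proteoglycans. The proteoglycan DCN (decorin) was at 138 and 18.8 and LUM (lumican) at 21.7 and 1.94. COL1A1 and COL1A2, the chains of type I collagen, were at 46.2 and 5.29 and at 74.7 and 10.6. POSTN, periostin, was at 84.9 and 14.1, and ISLR, a secreted protein of mesenchymal cells, at 101.5 and 14.2. IGFBP6, a binding protein for insulin-like growth factors, was at 28.6 and 2.63, and MFAP5, a component of microfibrils, at 18.3 and 1.26. SLC47A1, an exporter of organic cations, was at 17.0 and 1.44. FAM180A was at 12.5 and 1.22, and FGFBP1, which binds fibroblast growth factors, at 12.2 and 1.34. Of the 15, MFAP5, SLC47A1, FAM180A and FGFBP1 were not listed above the lesion.

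**Figure D2:**
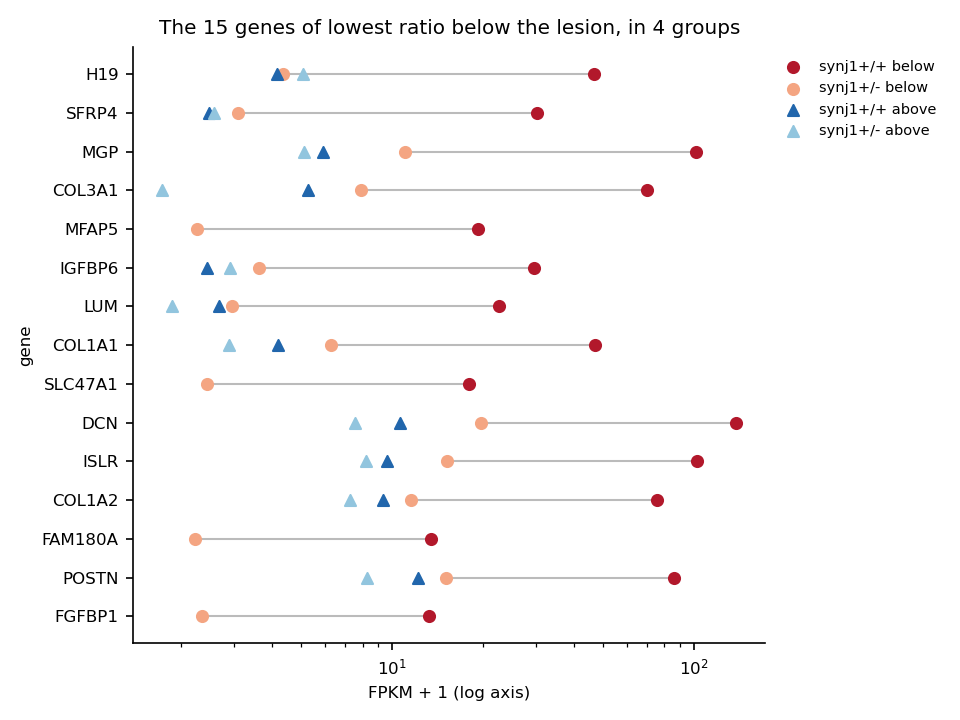
FPKM + 1 on a log axis of the 15 genes of lowest ratio below the lesion, in 4 groups, each point being the authors' pooled value of 3 libraries; circles are below and triangles above the lesion, and 4 genes have no value above. Mice labelled synj1+/+ lie far to the right of the others below the lesion in each row, for instance 138 against 18.8, 9.60 and 6.54 FPKM for DCN.

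The 103 genes lower past 2-fold were followed across the 4 groups. Above the lesion, 91 of them were listed. Over those 91 genes, the median FPKM was 33.1 in mice labelled synj1+/+ below the lesion, 10.3 in mice labelled synj1+/- below, and 9.80 and 8.37 in the corresponding groups above. The synj1+/+ label below the lesion had the highest value of the 4 groups for 88 of the 91 genes, an order that the choice of these genes partly fixes. Above the lesion, 20 of the 91 genes were also lower past 1.5-fold, counted without the filter at that site. Of all genes that passed the filter above, 1.37% were lower past 1.5-fold.

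Promoter sequences are shown for the 4 genes of lowest ratio that RefSeq's promoter table of GRCm38.p6 holds, since these genes were lower together; 7 of the 15 lowest genes have an entry. Each runs from 250 bases before to 50 bases after the transcription start. Capitals mark the TATA motif TATAAA, searched on both strands, whose opposite strand reads TTTATA and can overlap it. COL3A1 lies at chr1:45311288-45311587 on the plus strand, IGFBP6 at chr15:102143936-102144235 on the plus strand, ISLR at chr9:58158505-58158804 on the minus strand and COL1A2 at chr6:4505368-4505667 on the plus strand.
COL3A1: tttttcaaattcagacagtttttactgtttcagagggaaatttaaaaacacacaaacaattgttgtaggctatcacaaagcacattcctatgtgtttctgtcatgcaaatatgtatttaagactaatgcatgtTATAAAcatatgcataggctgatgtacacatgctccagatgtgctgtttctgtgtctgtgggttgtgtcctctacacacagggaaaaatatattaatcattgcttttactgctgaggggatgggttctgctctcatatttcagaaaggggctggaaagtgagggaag
IGFBP6: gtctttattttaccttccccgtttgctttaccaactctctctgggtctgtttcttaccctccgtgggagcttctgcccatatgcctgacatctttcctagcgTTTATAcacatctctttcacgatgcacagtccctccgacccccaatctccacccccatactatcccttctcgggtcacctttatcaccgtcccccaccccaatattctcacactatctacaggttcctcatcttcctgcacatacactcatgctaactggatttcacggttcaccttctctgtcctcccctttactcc
ISLR: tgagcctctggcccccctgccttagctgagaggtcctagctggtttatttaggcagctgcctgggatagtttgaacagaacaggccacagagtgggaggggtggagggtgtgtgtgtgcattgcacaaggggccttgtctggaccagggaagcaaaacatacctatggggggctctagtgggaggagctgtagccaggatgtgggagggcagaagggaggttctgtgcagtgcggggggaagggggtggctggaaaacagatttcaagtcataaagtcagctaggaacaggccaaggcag
COL1A2: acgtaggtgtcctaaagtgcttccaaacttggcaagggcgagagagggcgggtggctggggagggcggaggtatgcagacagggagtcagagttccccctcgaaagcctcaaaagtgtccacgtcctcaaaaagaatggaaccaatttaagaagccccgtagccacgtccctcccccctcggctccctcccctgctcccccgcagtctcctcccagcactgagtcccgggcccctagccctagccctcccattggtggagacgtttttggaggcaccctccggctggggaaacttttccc

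The motif was found in COL3A1, 117 bases before the start, and on the opposite strand in IGFBP6, 148 bases before it. It was not found in the windows of ISLR and COL1A2. A gene can have several starts in the table. Among 102 promoters of 76 of the genes lower past 2-fold, 11.8% held the motif on either strand, against 7.05% of 10131 promoters of 7748 genes that passed the filter and 13.6% of all promoters in the table. Between 15 and 40 bases before the start, on the sense strand, 3 of these 102 promoters (2.94%) held it. The share was 1.05% for all genes that passed and 1.99% for all promoters in the table. For the neuron lists, whose genes were mostly higher, 11.6% of 164 promoters held the motif on either strand and 1.83% in that window. The median number of CG dinucleotides per promoter was 7 for the genes lower past 2-fold and 20 for all genes that passed. It was also 7 for all promoters in the table, and 16 for the neuron lists.

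Genes of the extracellular matrix were lower as a group. Over 7 lists, 91 of 103 matrix genes were listed, and 84 of the 91 were lower in mice labelled synj1+/-, where 47.2% of all listed genes were. Of the 70 that passed the filter, 38 were lower past 1.5-fold (54.3%) and 0 higher. Of all genes that passed, 3.59% were lower past 1.5-fold and 0.815% higher. Of the 70 matrix genes, 18 passed through 1 group only. The median log2 ratio of the listed matrix genes was -0.75, against 0.01 for all listed genes. Above the lesion, 2 of 53 matrix genes that passed there were lower past 1.5-fold, where 1.37% of all genes were. The median of the matrix genes above was -0.16.

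The fibrillar and network collagens had a median of -1.17 below and -0.09 above the lesion. Of 13 passing members, 10 were lower past 1.5-fold, where 3.59% of all genes were. Of the 13, 6 passed the filter through mice labelled synj1+/+ only, COL6A3 and COL6A2 among them, and so had to be lower. COL6A3 and COL6A2, chains of the microfibrillar type VI collagen, were at 30.5 and 6.31 and at 32.1 and 7.85. COL11A1 was the exception in direction, at 61.9 and 73.5, and COL16A1, the collagen of highest level, was at 275 and 217. For the basement membrane, the sheet of type IV collagen and laminins under vessels and meninges, the median was -0.78 and all 9 passing members were lower. Of these 9, 2 passed the filter through mice labelled synj1+/+ only. COL4A1 was at 40.2 and 15.3, the proteoglycan HSPG2 (perlecan) at 86.8 and 35.5, and SPARC, a collagen-binding glycoprotein, at 3111 and 2068. Above the lesion HSPG2 was at 29.6 and 25.7.

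Small leucine-rich proteoglycans, which bind collagen fibrils, had a median of -1.26, and all 10 listed members were lower. Of the 6 that passed the filter, LUM and PODN did so through mice labelled synj1+/+ only. BGN (biglycan) was at 142 and 41.5, while PRELP was at 88.8 and 70.6. Matrix glycoproteins had a median of -1.36 below and -0.46 above the lesion. Of the 10 that passed the filter below, 2 did so through mice labelled synj1+/+ only. ELN (elastin) was at 33.6 and 10.9, EFEMP1 (fibulin 3) at 36.6 and 11.9, and TNC (tenascin C) at 15.7 and 11.1. Genes that fold and crosslink collagen had a median of -0.49. SERPINH1, the collagen chaperone of the endoplasmic reticulum, was at 405 and 126 below and at 142 and 103 above, LOX (lysyl oxidase) at 15.6 and 3.33, and PCOLCE, an enhancer of procollagen processing, at 31.9 and 10.0. In the same list BMP1, the procollagen C-proteinase, was at 241 and 223, and LOX passed the filter through mice labelled synj1+/+ only.

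Not every matrix list had so low a median. Chondroitin sulfate proteoglycans and their partners, which form perineuronal nets and the glial scar, had a median of -0.16, and 0 of 8 passing members were past 1.5-fold. NCAN was at 22.6 and 21.6, VCAN at 36.6 and 32.5, and HAPLN4, a link protein of perineuronal nets, at 56.5 and 72.6. Metalloproteinases and their inhibitors had a median of -0.34. MMP12, the macrophage elastase, was at 63.0 and 21.3, and TIMP1 at 44.2 and 17.7, whereas TIMP2 was at 183 and 182.

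Markers of meningeal and perivascular fibroblasts moved with the matrix genes. Of 20 such genes, 15 were listed and all 15 were lower in mice labelled synj1+/-, where 47.2% of all listed genes were. Only 8 of the 15 passed the filter, 2 of them through mice labelled synj1+/+ only. The list was chosen with earlier results known and holds SFRP4 and ISLR, both among the 15 lowest genes. The summed FPKM of the listed genes was 2762 in mice labelled synj1+/+ and 1557 in mice labelled synj1+/- below the lesion, and 1114 and 883 above it. The largest terms of the sum below were PTGDS, the prostaglandin D synthase of leptomeninges and oligodendrocytes, at 1461 and 1051, and IGF2 at 904 and 305. The transcription factors of the list were low in both groups, with TWIST1 at 2.97 and 0.233 and FOXC2 at 2.85 and 0.349. In bulk tissue, fewer cells of a type and less RNA per cell cannot be told apart, and the part of fibroblast content in the matrix result was not tested. Schwann cell genes, which mark nerve roots and invading peripheral glia, had a median of -0.30, with EGR2 at 41.4 and 16.8.

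The insulin-like growth factor axis was lower at the level of ligands and binding proteins. All 11 listed members were lower, and 7 of the 10 that passed were lower past 1.5-fold, where 3.59% of all genes were; H19, IGFBP6 and IGFBP3 among the 7 passed through mice labelled synj1+/+ only. The list had a median of -0.92 below and -0.26 above the lesion. IGF1 was at 532 and 198.2 below and at 218 and 158 above. IGF2 was at 904 and 305 below and at 89.4 and 62.1 above. The receptors IGF1R, at 62.1 and 56.3, and IGF2R, at 3.98 and 3.94, differed little. Among the binding proteins, IGFBP7 was at 353 and 187 and IGFBP4 at 86.9 and 46.9. IGF2 and H19 are imprinted neighbours on chromosome 7, from 142650768 to 142666816 and from 142575530 to 142578146 in GRCm38.p6, 72.6 kb apart, and both were lower.

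The transforming growth factor beta pathway, which drives matrix synthesis, had a median of -0.36, and 2 of 13 passing members were lower past 1.5-fold, both of which passed the filter through mice labelled synj1+/+ only. These were the responsive genes CCN2 (connective tissue growth factor), at 13.5 and 5.61, and TGFBI, at 18.0 and 8.63. The ligand TGFB1 was at 14.6 and 10.7, the receptors TGFBR1 and TGFBR2 at 84.0 and 61.2 and at 35.8 and 25.6, and SMAD3 at 21.6 and 19.8. Among Wnt antagonists only SFRP4 was past 1.5-fold of the 4 that passed, while SFRP1 was at 14.8 and 17.6 and DKK3 at 175 and 190.

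Genes of immune cells and immune responses were lower to a smaller degree. Over 7 such lists, 85 of 110 genes were listed and 66 of the 85 were lower (77.6%), where 47.2% of all listed genes were. Of the 68 that passed the filter, 25 were lower past 1.5-fold (36.8%, against 3.59% of all genes) and 1 higher, and 7 of the 68 passed through 1 group only. Above the lesion 10 of 70 were lower past 1.5-fold, where 1.37% of all genes were. Activated microglia and macrophage genes had a median of -0.59 below and -0.28 above. LYZ2, the lysozyme of myeloid cells, was at 1100.2 and 464 below and at 379.8 and 234 above. LGALS3 (galectin 3) was at 186 and 97.3, TYROBP, an adaptor of microglial receptors, at 132 and 72.5, CD68, a lysosomal marker of phagocytes, at 199 and 115, and SPP1 (osteopontin) at 1866 and 1109.

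Markers of homeostatic microglia had a median of -0.41 below and -0.28 above the lesion, and 1 of 9 was past 1.5-fold, AIF1 (IBA1), at 26.04 and 13.2. TMEM119 was at 59.5 and 47.5, CX3CR1 at 132 and 99.2, and CSF1R at 167 and 138. Border macrophage and phagocytic receptor genes had a median of -0.93, with the scavenger receptors STAB1 at 20.2 and 8.01 and CD36 at 95.4 and 35.7, and with MS4A7 at 27.96 and 11.7. Their defining markers MRC1, at 1.88 and 1.35, and PF4, at 3.97 and 1.86, were near 0 in both groups. STAB1 passed the filter through mice labelled synj1+/+ only.

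The complement list had a median of -0.64 below and -0.40 above. The 3 chains of C1q, made by microglia, had nearly the same ratio at both sites. C1QA was at 702 and 449 below and 484 and 322 above, C1QB at 480.5 and 299 below and 319 and 212 above, and C1QC at 938 and 599.6 below and 643 and 410.4 above. SERPING1, the C1 inhibitor, was at 68.9 and 22.7 below and at 20.6 and 20.2 above, and C3 was at 58.2 and 54.1.

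Interferon-stimulated genes did not share this direction. Their median was 0.12 below and -0.10 above the lesion, with 7 of 9 passing members higher below and 3 of 7 above. IRF7, a transcription factor that amplifies the interferon response, was past 1.5-fold at both sites in opposite directions, at 35.0 and 54.7 below and at 43.7 and 27.8 above. OASL2 was at 50.7 and 67.3 and IFIT3 at 128 and 147. IFITM2, also on the list, was lower at 159 and 88.6. Antigen presentation genes had a median of -0.31 with 0 of 9 past 1.5-fold, for instance B2M at 586 and 461 and H2-D1 at 223 and 195. Of the chemokines and cytokines, CXCL12 was at 92.3 and 58.9 below and 45.5 and 57.5 above, CCL3 at 10.8 and 5.11, CCL4 at 16.9 and 9.38, and the neuronal chemokine CX3CL1 at 61.4 and 76.9. CCL3 and CCL4 passed the filter through mice labelled synj1+/+ only and so had to be lower.

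Lysosomal genes, which phagocytes carry at high level, had a median of -0.45 below and -0.24 above the lesion, and 17 of 18 were lower. CTSH and CTSS, cathepsins of myeloid cells, were at 167 and 89.4 and at 971 and 632, while MCOLN1, a lysosomal channel, was at 63.3 and 63.4. The cholesterol exporter ABCA1 was at 88.9 and 52.2. It was the 1 member past 1.5-fold of the list of cholesterol synthesis and lipid transport, of which 14 of 17 were higher, with a median of 0.20 below and 0.01 above. CYP51, an enzyme of cholesterol synthesis, was at 20.6 and 27.2.

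Astrocyte genes were mostly lower, by small amounts. Reactive astrocyte genes had a median of -0.42 below and -0.26 above, and 9 of 10 were lower. GFAP had a log2 ratio of -0.39, SERPINA3N was at 942 and 693, the interleukin 6 family receptor OSMR at 32.4 and 16.8, and EMP1 at 64.1 and 28.4. LCN2 (lipocalin 2), an acute-phase protein, went the other way at 20.3 and 45.4, a log2 ratio of 1.12. Homeostatic astrocyte genes had a median of -0.10 below and -0.16 above, with 11 of 12 lower below and none past 1.5-fold, with ALDH1L1 at 37.8 and 34.8, AQP4 at 2272 and 1724 and the glutamate transporter SLC1A2 at 1668 and 1474. Myelin and oligodendrocyte genes had a median of 0.03, and the 11 that passed ranged from -0.13 to 0.17, with MOG at 205 and 229.9. Oligodendrocyte precursor genes had a median of -0.07, and 0 of 10 was past 1.5-fold.

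Vessel genes differed by small amounts and were mostly lower. Of 23 that passed, 19 were lower, where 4458 of all 9694 genes were. Endothelial genes had a median of -0.17 with 13 of 14 lower, for instance PECAM1 at 32.0 and 29.2 and CLDN5 at 71.4 and 64.2. CDH5 (VE-cadherin), the 1 member past 1.5-fold, was at 15.1 and 9.55 and passed the filter through mice labelled synj1+/+ only. Pericyte and smooth muscle genes had a median of -0.16. Red cell genes, which follow the blood left in a sample, had a median of 0.32 below the lesion and 2.17 above. HBA-A1 was at 255 and 329 below and at 103 and 468 above, and HBA-A1 and HBA-A2 are near-identical copies between which reads can be split.

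**Figure D3:**
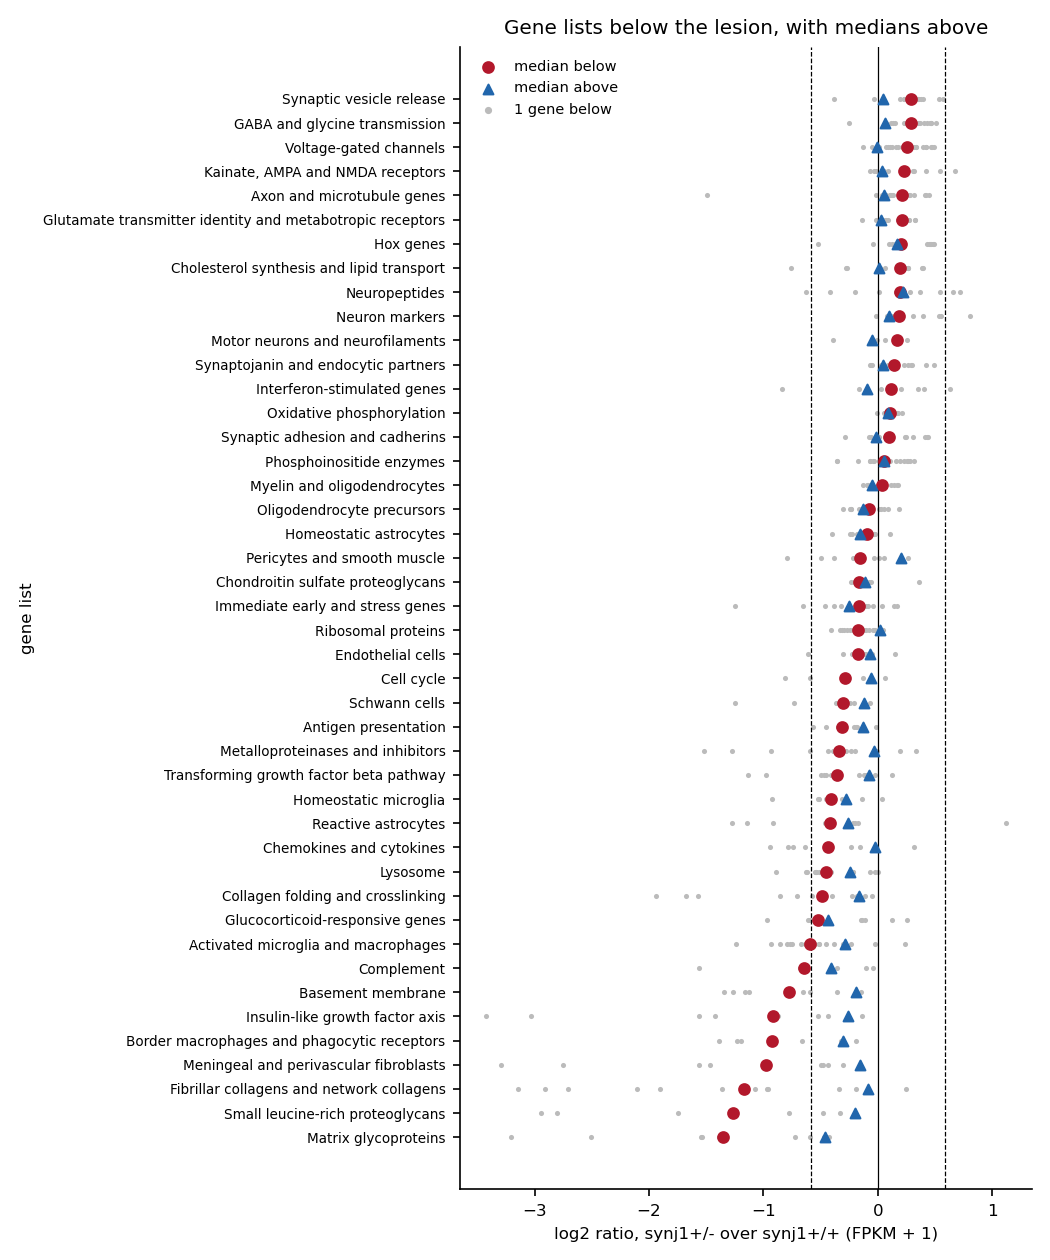
Log2 ratio of mice labelled synj1+/- over mice labelled synj1+/+ for gene lists with at least 5 genes passing the filter below the lesion; grey points are genes below, red circles their median, and blue triangles the median above of the members passing there. Dashed lines mark 1.5-fold; the medians run from -1.36 for matrix glycoproteins to 0.29 for synaptic vesicle release.

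Neuronal genes were higher, by small amounts and in large number. Over 11 lists, 182 of 233 genes were listed below the lesion and 156 of the 182 were higher in mice labelled synj1+/-, or 85.7%, where 52.8% of all listed genes were. Of the 169 that passed the filter, 145 were higher and 24 lower, with a median log2 ratio of 0.23. Past 1.5-fold, 4 of the 169 were higher, where 0.815% of all genes were, and 2 were lower (1.18%), where 3.59% of all genes were. Above the lesion, 127 of 206 passing genes (61.7%) were higher, where 50.1% of all genes were, and the median was 0.04. These lists were chosen with earlier results known, and the size of most single differences was well within 1.5-fold.

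Neuron markers had a median of 0.19 below and 0.10 above the lesion. The vesicle fusion protein SNAP25 was at 5271 and 6928, STMN2 at 180 and 197, and TUBB3 (class III tubulin) at 387 and 417. CAMK2A, a kinase of excitatory synapses, was at 115 and 169, and NRGN (neurogranin), past 1.5-fold, at 8.54 and 15.7. NRGN passed the filter through mice labelled synj1+/- only and so had to be higher. GAP43, which marks growing axons, was at 133 and 131. Motor neuron and neurofilament genes had a median of 0.17, with NEFL at 764 and 869.8 and the vesicular acetylcholine transporter SLC18A3 at 33.1 and 39.6.

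Synaptic vesicle release genes had a median of 0.29 below and 0.05 above, and 21 of 23 were higher. The calcium sensors SYT2 and SYT1 were at 364 and 539 and at 331 and 480.0. STX1A, a syntaxin of the fusion complex, was at 43.6 and 52.5. VAMP1 was at 998 and 1254. SYN3 (synapsin 3) was the largest exception at 371 and 284. Above the lesion SYT2 was at 417 and 404, and SYT1 at 483 and 529, so for both genes the lowest of the 4 values was that of mice labelled synj1+/+ below.

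The endocytic partners of synaptojanin 1 had a median of 0.15, with 15 of 18 higher and none past 1.5-fold. DNM1 was at 9759 and 13065, AMPH (amphiphysin) at 80.4 and 98.2, the endophilin SH3GL2 at 149 and 183, and PIP5K1C, the kinase that makes phosphoinositol 4,5-bisphosphate at synapses, at 486 and 583. These counts include SYNJ1, whose level goes against the labels; without it 14 of 17 were higher and the median was 0.14. Enzymes of phosphoinositide metabolism as a whole had a median of 0.05 at both sites and 0 of 21 past 1.5-fold. INPP5D (SHIP1), the phosphatase of blood and microglial cells, was among the lowest at 168 and 131, and PLCB4, a neuronal phospholipase, among the highest at 443 and 551.

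Glutamate receptor genes had a median of 0.23 below and 0.04 above the lesion, with 11 of 14 higher. GRIK1, a kainate receptor subunit, was at 27.4 and 40.5 below and at 26.8 and 54.5 above. GRIN2B, an NMDA receptor subunit and the 1 member past 1.5-fold, was at 14.97 and 24.5 below and 19.1 and 30.9 above. GRIN2D was at 97.6 and 131, while the AMPA receptor subunit GRIA2 was at 788 and 819 and GRIK2 at 111 and 108. For transmitter identity, SLC17A6, the vesicular glutamate transporter of most glutamatergic spinal neurons, was at 91.1 and 108. SLC17A7, the transporter of other glutamatergic axons, was at 0.639 and 2.51, under the filter in both groups. The metabotropic receptors GRM7 and GRM8 were at 129.9 and 163 and at 17.2 and 21.8.

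Inhibitory transmission had the same direction. GABA and glycine genes had a median of 0.29 below and 0.07 above, with 19 of 20 higher. GAD1, which makes GABA, was at 238 and 315, the vesicular transporter SLC32A1 at 167 and 228, and the glycine transporter SLC6A5 at 326 and 419. The receptor subunit GABRA5 was at 89.3 and 127, while GABRB1 was at 18.1 and 15.1. Side by side, the medians for glutamate receptors and for inhibitory transmission were thus of similar size.

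Voltage-gated channels had a median of 0.26 below and -0.01 above, with 20 of 22 higher. KCNC1, a potassium channel of fast-spiking neurons, was at 350.5 and 461, and the T-type calcium channel CACNA1G at 519 and 730.1. Neuropeptides had a median of 0.19 below and 0.22 above. SST (somatostatin) was at 194 and 283, and GRP and TAC2 were past 1.5-fold at 16.1 and 27.2 and at 19.3 and 31.1. NPY, at 22.6 and 14.3, and ADCYAP1, at 228 and 169.9, were among the 3 lower members.

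Adhesion and axon genes completed the neuronal lists. Synaptic adhesion genes and cadherins had a median of 0.10 below and -0.01 above, with KIRREL3 at 151 and 205 and CDH8 at 54.6 and 74.0. Axon and microtubule genes had a median of 0.21 below and 0.05 above. APC2, which stabilizes microtubules, was at 303 and 404, ATL1, an endoplasmic reticulum GTPase of axons, at 29.9 and 40.4, and ARHGAP6 at 22.4 and 31.0. SPRR1A, a gene induced in injured neurons, stood apart from this list at 67.5 and 23.3 below and 82.9 and 51.1 above. Hox genes had a median of 0.20 below and 0.17 above the lesion, for example HOXB8 at 558 and 773.

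**Figure D4:**
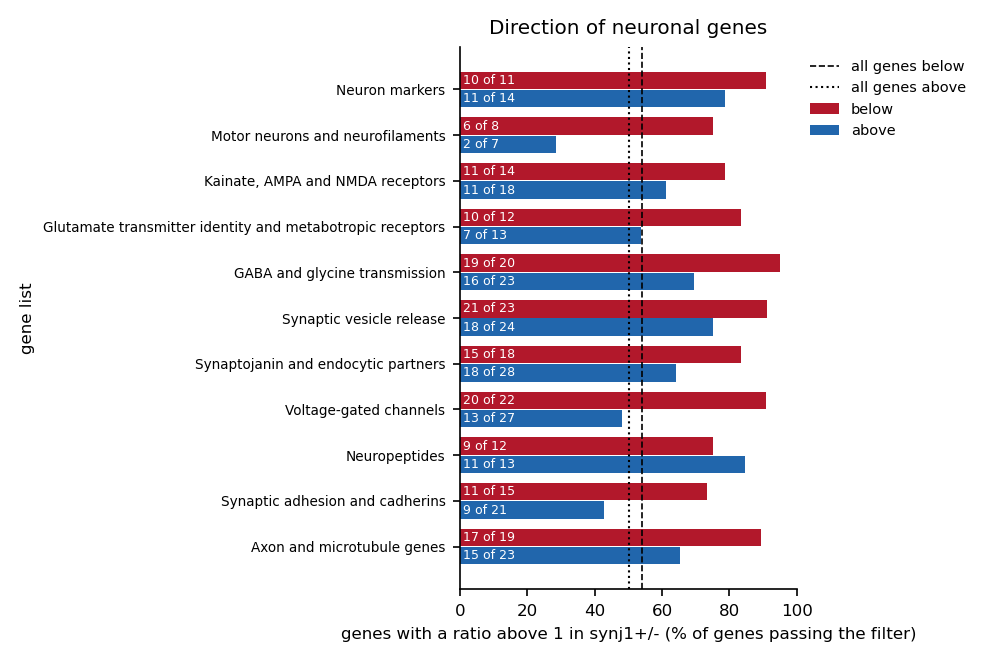
Share of genes of each neuronal list that were higher in mice labelled synj1+/-, as a percentage of the genes passing the filter at that site, below (red) and above (blue) the lesion, with the counts printed in the bars; the dashed line is the 54.0% of all genes that passed below and the dotted line the 50.1% of those that passed above. Below the lesion the shares run from 11 of 15 to 19 of 20.

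The order of the 4 groups was described for genes listed at both sites. Among 67 matrix genes, the synj1+/+ label below the lesion had the highest of the 4 values for 50 genes (74.6%), and among 68 immune genes for 49 (72.1%), where it had the highest for 28.1% of all 9618 genes. Since 16 of the 67 matrix genes and 7 of the 68 immune genes passed the filter through 1 group only, their order was partly fixed; without such genes the shares were 68.6% and 70.5%, against 27.2% of all genes. Among 167 neuronal genes it had the lowest of the 4 values for 108 (64.7%), where it had the lowest for 30.8% of all genes. The median FPKM of the matrix genes was 30.9 in mice labelled synj1+/+ below and 14.1 in mice labelled synj1+/- below, and above it was 15.1 and 14.0. For the neuronal genes the medians were 127 and 147 below and 159 in both groups above. The synj1+/+ label below the lesion had the highest value for 73.9% of 23 vessel genes and 77.8% of 27 genes of growth factor signalling. Of these, 2 vessel genes and 6 signalling genes passed the filter through that group only, so their order was partly fixed too. At the other end, the synj1+/- label above the lesion had the lowest value for 33 of the 67 matrix genes and 37 of the 68 immune genes. Whether each of the 3 libraries of a group shared its order cannot be read from pooled values.

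Genes with the largest difference of ratio between the sites were named from the 9380 genes that passed at both. Among these, 42 had a ratio below the lesion lower by more than 2-fold than above, and 28 one higher by more than 2-fold. MMP12 was at 63.0 and 21.3 below and at 21.7 and 45.0 above, the lowest difference at -2.54. CD36 followed the same pattern, at 95.4 and 35.7 below and at 47.0 and 65.3 above, as did RBM47, an RNA-binding protein, at 33.6 and 8.19 below and at 9.51 and 13.8 above, and BC028528 at 23.4 and 6.72 below and 8.86 and 14.5 above. RBM47 and BC028528 passed the filter below through mice labelled synj1+/+ only, and above through mice labelled synj1+/- only. POSTN had -2.51 below and -0.56 above. The haemoglobin genes HBB-BT, HBB-BS and HBA-A1 were also among the lowest differences because of their values above, for example 31.2 and 152 for HBB-BS.

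At the other end, SAA3, an acute-phase protein, was at 68.8 and 59.0 below and at 45.3 and 1.19 above. AOAH, which inactivates bacterial endotoxin, was at 10.8 and 10.7 below and at 11.6 and 1.37 above, and SLC9A7 was at 14.5 and 12.9 below and 17.8 and 4.39 above. CDK5RAP1 was at 15.1 and 17.9 below and 19.8 and 6.78 above. For these 4 genes the difference lay in the values above the lesion. GM14308, GM14434 and LOC102633156 also stood here, for example GM14308 at 17.8 and 32.8 below and 31.3 and 9.04 above; GM14308 and GM14434 lie close together on chromosome 2, from 176619933 to 176636423 and from 176470369 to 176486853, and reads of similar genes may have been split between them. CD59B, a copy of the complement regulator CD59A, was at 4.22 and 13.1 below, where CD59A was at 276 and 269. CD59B passed the filter below through mice labelled synj1+/- only.

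**Figure D5:**
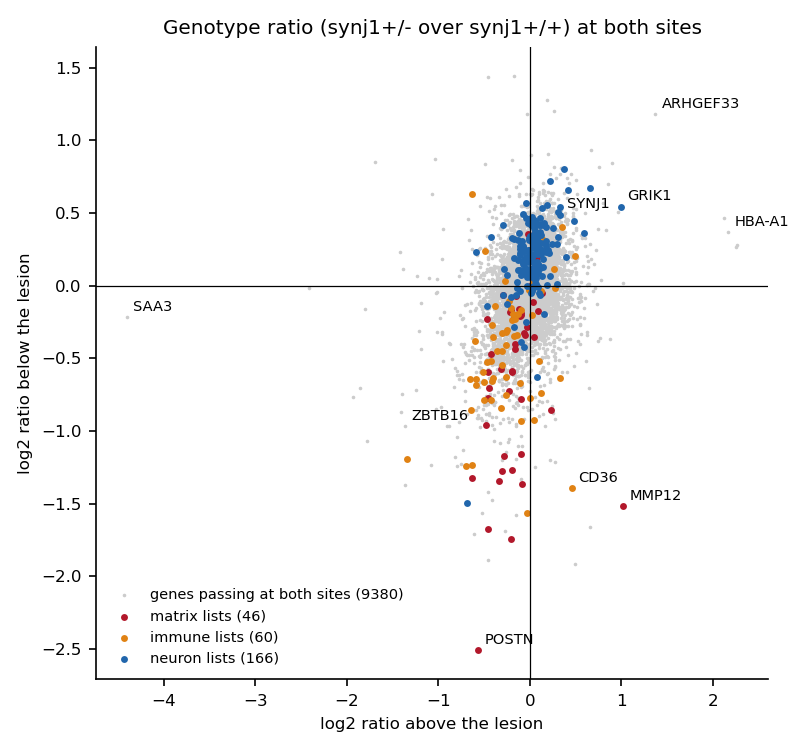
Log2 ratio below against log2 ratio above the lesion for the 9380 genes passing the filter at both sites, 1 point per gene, with matrix, immune and neuron genes coloured. Matrix genes reach down to -2.51 below (POSTN) near small ratios above, neuron genes lie mostly above 0 below the lesion and around 0 above it, and the haemoglobin genes lie far to the right.

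Few of the genes higher past 1.5-fold were on the lists. Of these 79 genes, 6 were on any list (7.59%), 4 of them on the neuronal lists, where 5.61% of all genes that passed were on any list. Of the 79, 63 had an FPKM under 50 in the higher group, and 20 passed the filter through mice labelled synj1+/- only. GM13715 was listed at 0 in mice labelled synj1+/+ and at 11.6 in mice labelled synj1+/-, so no fold is given. VWA3B was at 3.31 and 17.8, and IL15, a cytokine that maintains lymphocytes, at 8.15 and 25.3. GPR12, a receptor of neurons, was at 9.74 and 28.3 below and at 24.4 and 21.6 above. CARTPT, a neuropeptide precursor, was at 25.5 and 48.5 below and at 46.4 and 46.8 above.

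For several of the 15 highest genes, the value of mice labelled synj1+/+ below the lesion was the lowest of the 4, which the choice by ratio partly fixes, and 7 of the 15, GPR12 and ACO1 among them, passed the filter through 1 group only. This order held for ACO1, an iron-regulated aconitase, at 5.95 and 15.003 below and 21.5 and 25.9 above, for COQ6, an enzyme of ubiquinone synthesis, at 15.7 and 29.4 below and 23.2 and 20.1 above, and for 1700001O22RIK at 10.1 and 25.96 below and 24.98 and 28.6 above. ENO1B, a copy of enolase whose reads may be shared with it, was at 23.4 and 54.2 below and 45.8 and 44.9 above. ARHGEF33 differed at both sites, at 28.8 and 66.5 below and 15.1 and 40.7 above. Also among the 15 were CENPS, a centromere protein, at 5.37 and 11.2, and TFR2, transferrin receptor 2, at 11.1 and 21.6.

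Of the general processes, oxidative phosphorylation genes had a median of 0.11 below and 0.09 above, with 19 of 20 higher and none past 1.5-fold. Ribosomal protein genes had a median of -0.17 below and 0.02 above, with 18 of 21 lower and none past 1.5-fold. Immediate early and stress genes had a median of -0.16, with the small heat shock protein HSPB1 at 205 and 130.1 below and 261 and 157 above. Genes induced by glucocorticoids had a median of -0.52 below and -0.43 above. ZBTB16 was at 18.7 and 9.10 below and 20.1 and 7.20 above, FKBP5 at 14.5 and 9.16 below and 13.7 and 7.47 above, and MT2 (metallothionein 2) at 1137 and 767 below and 918 and 733 above. For this list 9 of 11 genes were lower below and all 11 above. Lower past 1.5-fold were 3 at each site, where 3.59% of all genes were below and 1.37% above. Of the 11 genes below, 3 passed the filter through 1 group only. ZBTB16 and FKBP5 were among these 3, through mice labelled synj1+/+.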

How the data were processed

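RNA-seq libraries (random-primed TruSeq) of mouse spinal cord were assigned to 4 groups of 3 from their labels. Per the submitters' processing notes, STAR 2.5.4b, GRCm38.p6 and Cuffdiff 1.3.0 were used; the study's methods add random reduction to the site's smallest library and upper quartile normalization. The values of the authors are FPKM plus 1, pooled per group. The table's columns of the authors' own comparison (linear and log2 fold changes, p-values and q-values) and a shorter list were not used. The offset was checked on printed decimals: 88.3% of values from 1 to 2 have 6 decimals, against 5.08% from 2 to 3.

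The offset was subtracted for levels and kept for log2 ratios. With 0 columns of single samples, the planned limma test could not be run. Genes, 49 lists and thresholds were chosen with earlier results of these data known. Named were the 15 highest and 15 lowest ratios, the first 4 and the 6 largest ratios per list, SYNJ1, APOE and genes the study discusses, the 8 highest and 8 lowest site differences, calls within 5 Mb of SYNJ1 and the 5 highest levels. HOXC10, HOXD9, COL11A1, COL16A1, SPARC, TNC, BMP1, TIMP2, TWIST1, FOXC2, IGFBP4, SMAD3, PF4, C3, MCOLN1, TUBB3, GAP43, GRIA2, GABRB1 and CD59A were added after their values were seen. Positions are from RefSeq's GRCm38.p6 (12248 unique matches). Python 3.11.15, numpy 2.4.6, pandas 2.3.3 and matplotlib 3.10.9 were used, and the calls were tested on simulated data. Alternatives were pseudocounts of 0.1 and 5, no filter, a filter of 50, 2 scalings and a 2-fold threshold.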

Additional observations from a re-analysis of the deposited data

How the results depend on the processing

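No value could be tested or recomputed without a library, because the table holds pooled groups. No paired analysis was possible because the columns carry no single libraries and the labels of both groups share no replicate numbers. No list median or named gene past 1.5-fold changed direction under an alternative, but the medians of Wnt antagonists (-0.12) and oligodendrocyte precursors (-0.07), both inside 1.5-fold, changed sign. The 79 higher genes became 40 with a pseudocount of 5, 143 without a filter, 16 with an FPKM of at least 50 and 10 at 2-fold. The 348 lower genes became 541 without a filter, 114 with an FPKM of at least 50 and 103 at 2-fold. Lower genes made up 79.1% to 91.2% of the calls. With a pseudocount of 5, the median of activated microglia became -0.54 and of complement -0.57, inside 1.5-fold. With an FPKM of at least 50, collagen folding became -0.89, meningeal and perivascular fibroblasts -0.48, cell cycle -0.60, Wnt antagonists 0.12 (0.18 without a filter) and oligodendrocyte precursors 0.011. With a mean of at least 10, an alternative chosen after seeing the data, the fibroblast list became -0.49. Fewer or more genes enter under each filter; otherwise the cause was not tested. Counting each gene and list once per alternative, 2621 gene values and 325 list medians kept their side, while 47 gene values moved inside 1.5-fold and 16 past it. Both scalings shifted the median of all genes by under 0.1. The values limit precision in one more way: at low levels, pooled FPKM carry no count and so no counting error.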

Other observations

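Genes on no list were looked through after their values were seen. Of those with an FPKM of at least 50 in mice labelled synj1+/+ below the lesion, 74 were lower past 1.5-fold in mice labelled synj1+/-. Above the lesion, 65 of the 74 were also lower, 11 of them past 1.5-fold, where 49.9% of the genes listed at both sites and passing above were lower and 1.37% of all genes were lower past 1.5-fold. IFITM1, an interferon-induced membrane protein, was at 82.5 and 21.5, RCN3, a calcium-binding protein of the secretory pathway, at 104 and 34.2, and the leukocyte proteins LSP1 and CD48 at 148 and 67.0 and at 77.8 and 35.6. CYBA, a subunit of the phagocyte NADPH oxidase, was at 67.1 and 30.7. PLIN4, which coats lipid droplets, differed by a similar amount at both sites, at 99.6 and 37.96 below and 83.7 and 31.9 above. The transcription factor ZIC4, at 173 and 111 below, was at 78.4 and 91.2 above.

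Calcium-binding S100A genes passed the filter in 6 cases, all lower in mice labelled synj1+/-, 5 of them past 1.5-fold, where 3.59% of all genes were. The family was picked after its values were seen. S100A3, at 19.8 and 9.99, and S100A9, at 13.4 and 9.86, passed through mice labelled synj1+/+ only. S100A4 was at 81.7 and 35.1, S100A11 at 136 and 70.3 and S100A10 at 275 and 177, and above the lesion S100A10 was at 188 and 185. S100A3 and S100A9 were higher above, at 12.5 and 15.4 and at 2.77 and 2.91.

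Of the genes higher past 1.5-fold, 25 reached an FPKM of 40 in mice labelled synj1+/-. Named here after their values were seen are a few of the 25 that are known from neurons; the 25 also hold MYBPC1, NDUFAF6, LCN2 and HAUS8, and no theme is drawn from them. FGF13, a partner of sodium channels, was at 168 and 263, PPFIA3, a scaffold of presynaptic active zones, at 106 and 164, LYPD1, a modulator of nicotinic receptors, at 70.1 and 109, the nicotinic receptor subunit CHRNA4 at 26.1 and 40.9, and CDH18 at 40.3 and 65.1. Above the lesion FGF13 was at 242 and 289 and LYPD1 at 103 and 104.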
